A study of Mus musculus with 10 samples.

Results

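Among the 20171 genes used from this series, 6 genes of neuronal activity and synaptic adaptation were followed: the activity-regulated genes Arc, Npas4 and Homer1, the secreted neuronal pentraxins Nptx1 and Nptx2, and the pentraxin receptor Nptxr. They were chosen by name, with earlier results of these data known, and all 6 were found in the table. RNA bound to ribosomes tagged under the Gprin3 promoter was taken from the hippocampus of male C57BL/6 mice, 70 to 90 days old, by translating ribosome affinity purification (TRAP). The sample records name the source as CA3 neurons and the genotype as wild type, while the methods describe mice that carry the Gprin3-BacTRAP transgene. The 4 groups were unstressed controls, controls exposed to acute swim stress (AS, "FST" in the records), unstressed mice with early life stress (ELS), and ELS mice exposed to AS. ELS was a wire-floored cage with little nesting material from postnatal day 2 to 12, and control litters had a full nestlet. For AS, mice swam for 6 min in water kept at 25°C and were then returned to the home cage for 1 h. Libraries were made from pools of 5 to 6 mice. Both control groups have 2 libraries in the records and both ELS groups have 3, whereas the methods give 3 for every group, and which libraries entered the table is not stated.

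The authors deposited 1 value per gene and group, on the log2 scale of the regularized logarithm (rlog) of DESeq2, which shrinks differences of genes with few reads. Nothing in the table gives the spread between libraries or their depth, so no value below has an SD and no difference was tested. A difference is the value of one group minus that of another in log2 units, and a gene was counted as higher or lower past the size used here when its difference was over 0.5. Genes whose mean over the groups was 3 or more, 14986 in number and with all 6 among them, served as background, and the share of them that passed the same size is given where the 6 genes are first counted in a comparison.

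Neuronal activity first switches on immediate early genes, some of which encode transcription factors and others proteins that act directly at synapses. Arc drives the removal of AMPA-type glutamate receptors from the synapse, Npas4 is a neuron-specific transcription factor induced by calcium entry that shapes inhibitory input, and Homer1 encodes scaffolds that tie metabotropic glutamate receptors to the postsynaptic density. The pentraxins Nptx1 and Nptx2 are released by neurons and cluster AMPA receptors, and Nptxr is their membrane-bound relative.

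On GRCm38, the build of the GENCODE M21 annotation, Arc lies on chromosome 15 from 74669083 to 74672570, Npas4 on chromosome 19 from 4984355 to 4990316 and Homer1 on chromosome 13 from 93299635 to 93405129. Nptx1 is on chromosome 11 from 119538719 to 119547753, Nptx2 on chromosome 5 from 144545902 to 144557478, and Nptxr on chromosome 15 from 79786351 to 79804766. The authors aligned to mm10, which is the same build.

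Promoter windows from RefSeq (GRCm38.p6), from 250 bases before to 50 after a start, were at hand for Homer1 and Npas4. They were searched on both strands for TGACG, the core of the cAMP response element, through which CREB binds activity-regulated genes. The stretches that hold it are shown because Homer1 and Npas4 are both known as activity-regulated while their values after AS differed. The capitals mark TGACG or its reverse complement. The Homer1 stretch is chr13:93303507-93303756 on the plus strand, directly before the annotated start of a coding Homer1 transcript with 6 exons, and the Npas4 stretch is chr19:4990134-4990152 on the minus strand, which lies before the RefSeq start and inside an exon of the longer GENCODE transcript.
Homer1: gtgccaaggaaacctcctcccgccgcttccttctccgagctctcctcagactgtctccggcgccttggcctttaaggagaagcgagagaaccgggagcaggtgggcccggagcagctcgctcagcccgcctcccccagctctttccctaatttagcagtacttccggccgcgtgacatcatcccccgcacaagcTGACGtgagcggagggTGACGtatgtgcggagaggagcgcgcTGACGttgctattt
Npas4: gaCGTCAcgggaTGACGtc

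The first Homer1 window held 3 matches on the plus strand, beginning at positions −56, −40 and −14 from the start, and a second Homer1 window, around a start further downstream, held none. The Npas4 window held 2 matches in opposite orientation, at −179 and −169. Of 32851 RefSeq windows of this length, 20.8% held at least 1 match and 1.03% held 3 or more. The other 8 motifs searched had no match in these windows. They were the full element TGACGTCA, found in 1.79% of all windows, the AP-1 site TGANTCA in 7.81%, the Egr site GCGNGGGCG in 5.55%, the Npas4 core TCGTG in 16.0%, the TATA box TATAAA in 13.6%, and by name the CArG box in 1.63%, the Mef2 site in 3.19% and the glucocorticoid response element in 0.00913%. TGACG is part of the full element.

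Arc and Npas4 were higher after AS in both backgrounds, control and ELS. Nptx2 was a little higher in both, Homer1 was nearly level, and Nptx1 and Nptxr were lower after AS in controls, while in ELS mice Nptx1 was level and Nptxr was higher by 0.26. Past the size of 0.5, 2 of the 6 genes were higher after AS in controls, against 1.56% of all genes, and 1 was lower, against 2.08%. In ELS mice 2 of 6 were higher after AS, against 0.634%, and 0 were lower, against 0.113%. The median difference of the 6 genes was 0.03 in controls and 0.23 in ELS mice, where the medians of all genes were −0.01 and 0.00.

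**Figure D1:**
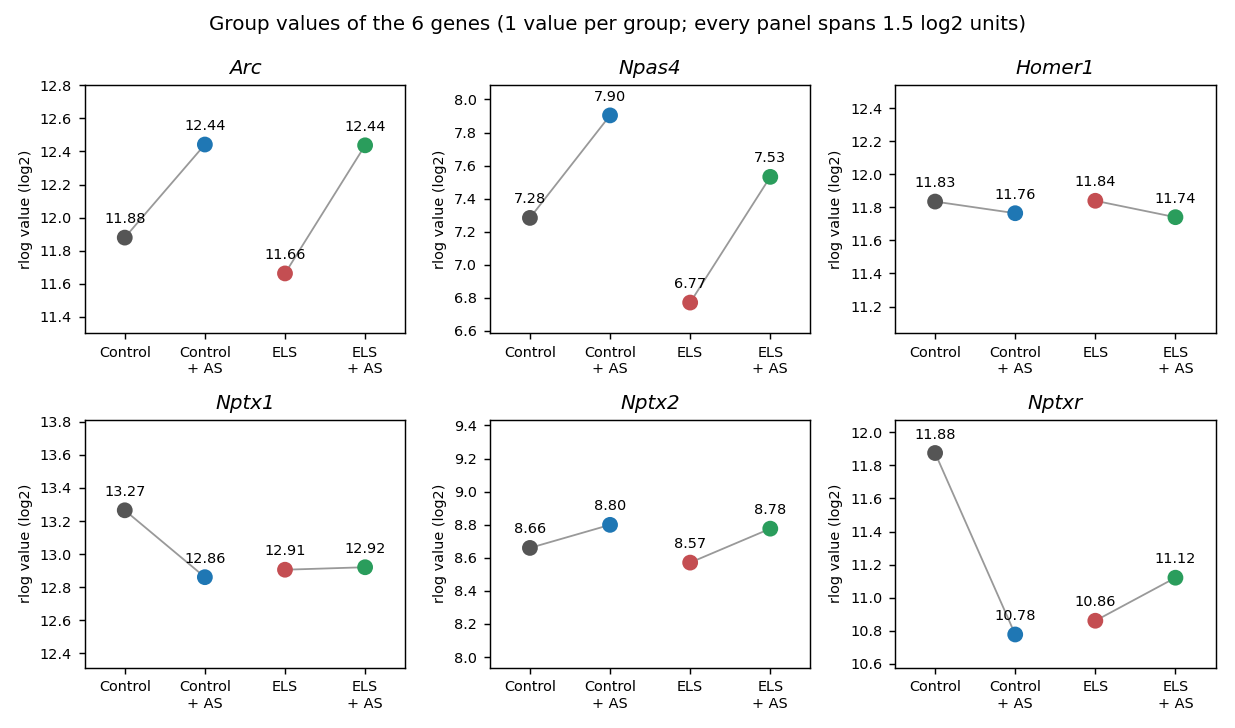
Group values (rlog, log2 scale) of the 6 genes in the 4 groups, with 1 point per group and a line joining unstressed and stressed mice of the same background. Arc and Npas4 step up after AS in both backgrounds, Homer1 spans 0.10, and Nptx1 and Nptxr have their top value in unstressed controls.

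Arc had a value of 11.88 in unstressed controls, 12.44 in controls with AS, 11.66 in ELS mice without AS and 12.44 in ELS mice with AS. The stressed groups were thus level with each other, and unstressed ELS mice had the lowest value. AS was accompanied by a difference of 0.56 in controls and of 0.77 in ELS mice. The antilogged rlog values had ratios of 1.48 and 1.71, which are not fold changes of reads, since rlog can shrink differences. Among 14986 genes ranked by difference, Arc stood at rank 145 from the highest in controls and at rank 12 in ELS mice. Its difference after AS was 0.21 larger in ELS mice than in controls, a contrast on which 76.7% of genes ranked below it. The larger step came with a lower starting value, as unstressed ELS mice were below unstressed controls by −0.22 and the stressed groups differed by −0.00.

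Npas4 had values of 7.28 in unstressed controls, 7.90 in controls with AS, 6.77 in ELS mice without AS and 7.53 in ELS mice with AS. In each background the stressed group was the higher, and within each stress state ELS mice were the lower. The difference after AS was 0.62 in controls, at rank 94 from the highest, and 0.76 in ELS mice, at rank 15. Unstressed ELS mice differed from unstressed controls by −0.51, at rank 271 from the lowest, and stressed ELS mice differed from stressed controls by −0.37, at rank 122 from the lowest. The value of −0.51 was only just past the size used and became −0.48 when each group was centred on its median. Npas4 thus ended 0.25 above unstressed controls in stressed ELS mice, where Arc ended 0.56 above them.

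Homer1 stood at 11.83 in unstressed and 11.76 in stressed controls, and at 11.84 in unstressed and 11.74 in stressed ELS mice. All 4 values lay within a range of 0.10, with both stressed groups below both unstressed groups. This order depended on the scaling, since without the trend with transcript length the difference after AS in controls was 0.02 and that of stressed ELS mice from unstressed controls was 0.00. The length used was that of the longest annotated transcript, which has 5713 bases in 5 exons. Transcripts with 9 or 10 exons have 2765 to 4287 bases, and the trend at their lengths was not tested. As deposited, the difference after AS was −0.07 in controls and −0.10 in ELS mice, and that of unstressed ELS mice from unstressed controls was 0.00. Homer1 makes a short, activity-induced form (Homer1a) that ends within an intron and competes with the long constitutive scaffolds. The annotation has 12 Homer1 transcripts, 11 of them coding, with 5 to 10 exons. The table holds 1 value for the gene, so the short and long forms were not separated.

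**Figure D2:**
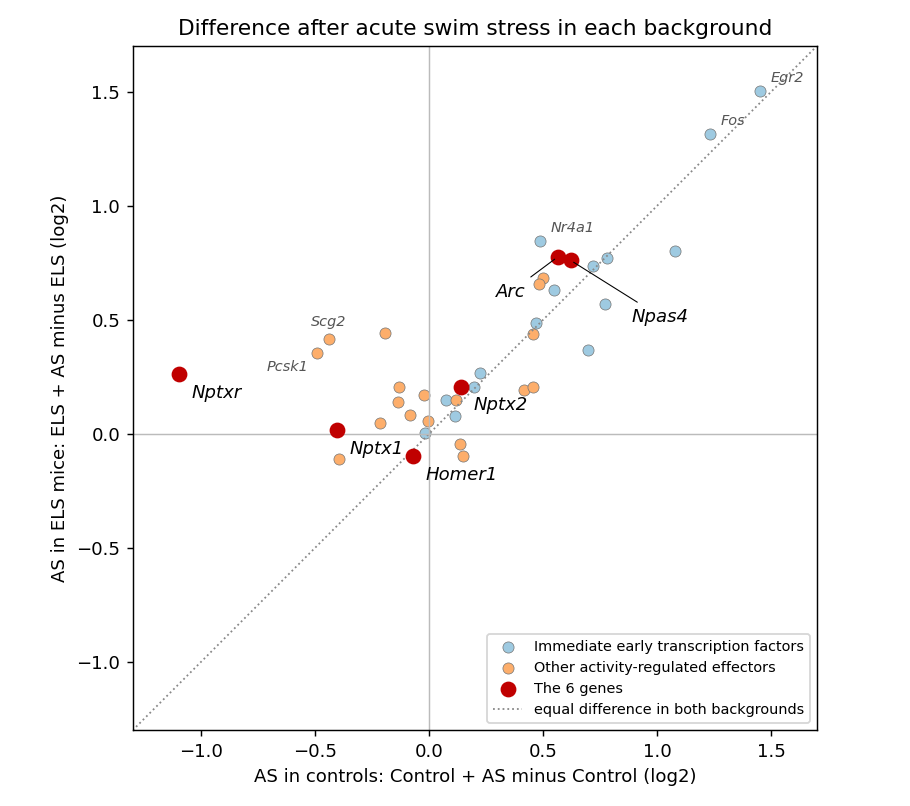
Difference after AS in controls (x axis) against that in ELS mice (y axis), both in log2 units of rlog, for the 6 genes (red), 15 immediate early transcription factors (blue) and 18 other activity-regulated effectors (orange), with 1 point per gene. No group enters both axes. Arc and Npas4 lie among the immediate early genes near the line of equal difference, and Nptxr lies far to the left at −1.10 and 0.26.

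The pair of differences after AS shares no group between backgrounds, and 17 of 14986 genes (0.113%) were higher by over 0.5 in both. Arc and Npas4 were 2 of these 17. Fos and Fosb, immediate early transcription factors, were others, with 1.23 and 1.08 in controls and 1.32 and 0.80 in ELS mice. Of 15 immediate early transcription factors, AS was accompanied by higher values for 14 in controls and for 15 in ELS mice, 8 of them past 0.5 in each background, with medians of 0.55 and 0.57. The exception in controls was Nr4a3, at −0.02. Of 18 other activity-regulated effectors, 8 were higher and 10 lower in controls, none past 0.5, with a median of −0.01. In ELS mice 15 were higher and 3 lower, 2 of them higher past 0.5, with a median of 0.18. Sik1, a kinase induced by cAMP, stood just under the size at 0.50 in controls and at 0.68 in ELS mice, and Arl4d, a small GTPase, stood at 0.48 and 0.66, while Ptgs2, which encodes the inducible cyclooxygenase, stood at −0.40 and −0.11.

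Patterns over the 4 group values were compared by the Euclidean distance after subtracting each gene's mean. The nearest to Arc were Nr4a1, an immediate early nuclear receptor, at a distance of 0.08, Sik1 at 0.09 and Junb, an AP-1 subunit, at 0.16. The nearest to Npas4 were Nr4a1 at 0.31, Arc at 0.33 and Sik1 at 0.39, and no gene lay within 0.1 of it. For Arc, 2 genes lay within that distance, for Nptx2 212, for Nptx1 416 and for Homer1 2054. Atf2, Zfp653 and C230004F18Rik were nearest to Homer1, each at 0.01.

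Among genes for partners of Arc and Npas4, and for factors known to induce them, none passed 0.5 after AS in either background. Of 11 inducers of activity-regulated genes, such as Srf, the Mef2 factors and CREB with its coactivators, 9 were lower in controls, with a median of −0.08 and none past 0.5, and 4 were lower in ELS mice, with a median of 0.03. Crebbp, which encodes the CREB-binding acetyltransferase, stood at −0.36 in controls and 0.07 in ELS mice. Arnt and Arnt2, the dimer partners of Npas4, differed by −0.14 and −0.03 in controls and by 0.05 and 0.10 in ELS mice. Of 14 partners and regulators of Arc, 9 were lower in controls and 7 in ELS mice, with medians of −0.07 and 0.00 and none past 0.5 in either. Ube3a, a ubiquitin ligase that has been linked to Arc levels, stood at −0.48 and 0.01.

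Homer1's relatives and ligands mostly lay near 0 or below. Of 10 such genes, 7 were lower after AS in each background, with medians of −0.11 in controls and −0.08 in ELS mice. Shank2, a scaffold that Homer proteins bind, stood at −0.52 and −0.27, and Grm5, the metabotropic receptor tied by Homer1, at −0.34 and 0.10. Homer2 stood at 0.12 and −0.13.

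Nptx1 had values of 13.27 in unstressed controls, 12.86 in controls with AS, 12.91 in ELS mice without AS and 12.92 in ELS mice with AS. Unstressed controls stood apart at the top, and the other 3 groups lay within 0.06 of each other. Against unstressed controls, stressed controls differed by −0.40, ELS mice without AS by −0.36 and ELS mice with AS by −0.34, none of them past 0.5. These 3 differences share the same unstressed controls. In ELS mice the difference after AS was 0.02, or −0.01 with each group centred on its median. The nearest patterns were those of Klf9, a transcription factor induced by glucocorticoids, Dgke, a diacylglycerol kinase, and Supt16, a histone chaperone subunit, each at a distance of 0.02.

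Nptx2 is the pentraxin most readily induced by activity, and had values of 8.66 in unstressed controls, 8.80 in controls with AS, 8.57 in ELS mice without AS and 8.78 in ELS mice with AS. Both stressed groups were above both unstressed groups, over a range of 0.23. The order of the groups, with unstressed ELS mice lowest and stressed controls highest, was that of Arc and Npas4. For Nptx2 and Arc the stressed groups were nearly level, though, with ELS mice differing from controls by −0.02 and −0.00. The difference after AS was 0.14 in controls, where 76.0% of genes ranked lower, and 0.21 in ELS mice, where 92.5% did. Without the trend with transcript length it was 0.07 in controls and again 0.21 in ELS mice. Per kilobase of the longest annotated transcript, the rlog level of Nptx1 lay between 10.48 and 10.88 and that of Nptx2 between 7.23 and 7.46. Foxm1, Lpin1 and Rassf1 had the nearest patterns to Nptx2, each at a distance of 0.02.

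Nptxr had values of 11.88 in unstressed controls, 10.78 in controls with AS, 10.86 in ELS mice without AS and 11.12 in ELS mice with AS. Unstressed controls were highest by far, and the other groups spanned 0.34. The difference after AS in controls was −1.10, at rank 4 from the lowest of 14986 genes, and that of unstressed ELS mice was −1.01, at rank 17. In ELS mice the difference after AS was 0.26, at rank 706 from the highest. The AS difference was therefore 1.36 higher in ELS mice than in controls, at rank 6 from the highest. This contrast and the differences of −1.10 and −1.01 all use the same unstressed control value. On this contrast Nptxr was the 1 gene of 6 higher past 0.5, against 4.65% of all genes, and 0 were lower, against 3.06%. The nearest patterns were those of Lmbrd2 at 0.13, and of the Golgi protein gene Glg1 and Lzts1, which encodes a postsynaptic protein, at 0.16 each.

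The Nptxr value is uncertain because another gene uses its exons. Npcd, annotated on the same strand of chromosome 15 from 79789675 to 79834237, starts upstream in the region of Cbx6 and runs into Nptxr. It shares 4 of the 5 exons of the Nptxr-203 transcript, in whole or in part. The 890 shared bases are 17.8% of the Nptxr exon bases and 61.3% of those of Npcd. Npcd had values of 13.78 in unstressed controls, 13.76 in controls with AS, 13.62 in ELS mice without AS and 13.57 in ELS mice with AS, so it showed no step like that of Nptxr. Its differences after AS were −0.02 in controls and −0.05 in ELS mice. When the antilogged values of both genes were summed, Nptxr made up 21.1% of the sum in unstressed controls, 11.3% in controls with AS, 12.9% in ELS mice without AS and 15.4% in ELS mice with AS. The log2 of the sum differed by −0.19 after AS in controls, by −0.30 in unstressed ELS mice and by −0.00 after AS in ELS mice. With Nptxr at none and Npcd level, the log2 of the sum could differ from unstressed controls by no more than −0.34, so a sum that stays under 0.5 says nothing of Nptxr itself. How the authors' counting divided the shared reads was not tested.

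**Figure D3:**
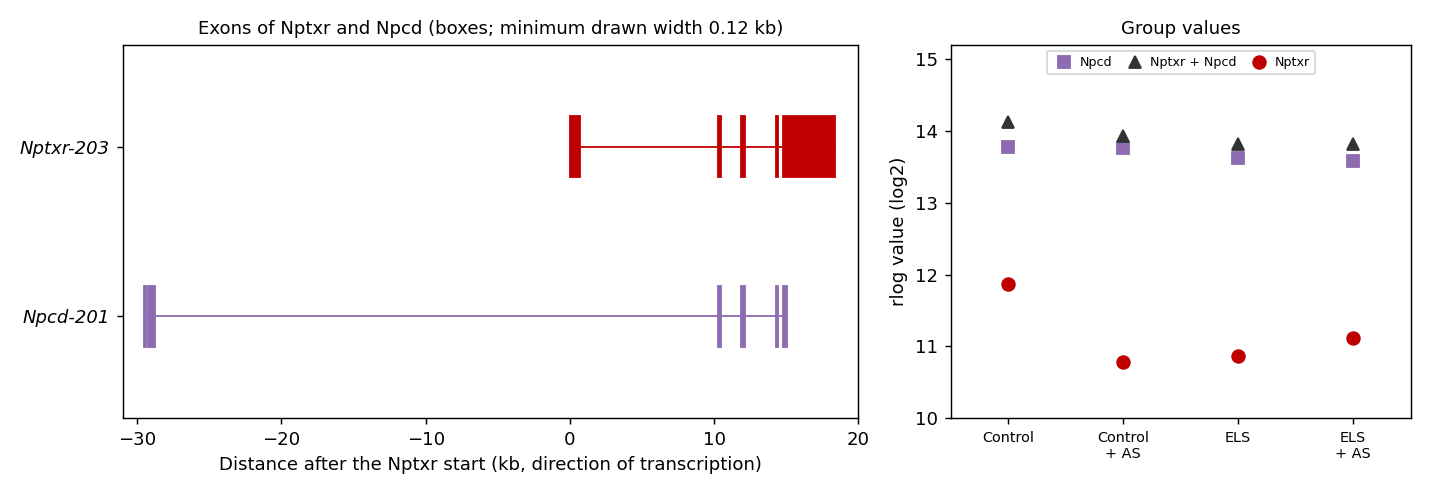
Left, exons of the Nptxr-203 and Npcd-201 transcripts placed to scale against distance from the Nptxr start in kilobases, with the shortest exons drawn wider than to scale. Right, group values (rlog, log2 scale) of Nptxr, Npcd and the log2 of their summed antilogs, with 1 point per group. The last 4 exons of Npcd fall on Nptxr exons, and Npcd lies between 13.57 and 13.78 while Nptxr has its top value of 11.88 in unstressed controls and reaches at most 11.12 elsewhere.

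The receptors and binding partners of the pentraxins were split by background. Of 10 such genes, 7 were lower after AS in controls, with a median of −0.18, whereas in ELS mice all 10 were higher, 1 of them past 0.5, and the median was 0.25. The gene past 0.5 was C1ql2, which is also in the list of dentate granule cell markers, and C1qa is also in that of microglia. In the same comparison the medians of dentate, astrocyte and oligodendrocyte markers were 0.33, 0.55 and 0.45. The AMPA receptor subunit genes Gria1 and Gria2 stood at −0.23 and −0.31 in controls and at 0.10 and 0.12 in ELS mice, and against unstressed controls at −0.30 and −0.39 in unstressed ELS mice. Adam17, which encodes the protease that releases Nptxr from the membrane, stood at −0.10 and 0.31. The complement genes C1qb and C1qa, whose protein binds pentraxins and which microglia express, were higher in both backgrounds, with 0.40 and 0.36 in controls and 0.38 and 0.27 in ELS mice. Of the other pentraxins, Ptx3 alone had a mean of at least 3, with values between 3.24 and 3.36.

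Unstressed ELS mice were compared with unstressed controls to ask what the early experience left behind in adulthood. Of the 6 genes, 5 were lower, against 51.5% of all genes, and Homer1 was level. Nptx2, counted among the 5, differed by only −0.09. The median difference of the 6 was −0.29, where the median of all genes was −0.01. Past 0.5, 2 genes were lower, Npas4 and Nptxr, against 1.92% of all genes, and 0 were higher, against 1.3%. Between stressed ELS mice and stressed controls 0 of 6 genes passed 0.5 in either direction, where 1.34% of all genes were higher and 0.347% lower. The median of the 6 was then −0.01. In that comparison, which gave −0.37 for Npas4 and 0.34 for Nptxr, 6 of 6 astrocyte markers were higher, all past 0.5, with a median of 0.65. Oligodendrocyte markers were higher for 6 of 6, with a median of 0.69, dentate markers for 5 of 6, with 0.43, inhibitory neuron markers for 8 of 8, with 0.28, CA1 markers for 5 of 5, with 0.14, and microglial markers for 6 of 6, with 0.36, while 6 of 7 CA3 markers were lower, with −0.12. Against unstressed controls, stressed ELS mice had Arc higher past 0.5, where 2.4% of all genes were, and Nptxr lower at −0.75, where 1.55% were. Markers differed here too, with 6 of 6 astrocyte and 6 of 6 microglial markers higher, at medians of 0.59 each. Inhibitory neuron markers were higher for 8 of 8 and oligodendrocyte markers for 6 of 6, both with 0.42. Dentate markers were higher for 4 of 6, with 0.16, and CA1 markers for 3 of 5, with 0.14. All 7 CA3 markers were lower, with −0.33, and Gprin3 stood at −0.74.

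Markers of other cells differed in the same comparisons. All 7 markers of CA3 pyramidal cells were detected, with values in unstressed controls from 7.47 for Gprin3 to 13.31 for Chgb, and so were markers of other cells, such as Gad1 of inhibitory neurons at 12.55. No marker was near 0, and the lowest value was 5.47, for Tmem119 of microglia in unstressed controls. In ribosome-bound RNA purified from pooled mice, differences in cell number, in RNA per cell and in the purification itself cannot be told apart. After AS in ELS mice, 6 of 6 markers of dentate granule cells, 5 of 5 of CA1 cells, 8 of 8 of inhibitory neurons, 6 of 6 of astrocytes, 6 of 6 of oligodendrocytes and 5 of 6 of microglia were higher, with medians of 0.33, 0.18, 0.30, 0.55, 0.45 and 0.24. CA3 markers were lower for 5 of 7, with a median of −0.07. Over the 4 groups the log2 of the summed levels ran from 12.69 to 13.03 for dentate markers, from 12.47 to 12.66 for CA1 markers, from 13.51 to 13.86 for inhibitory neurons, from 14.03 to 14.70 for astrocytes, from 15.10 to 15.58 for oligodendrocytes, from 9.18 to 9.73 for microglia and from 14.41 to 14.65 for CA3 markers. After AS in controls, where Arc and Npas4 were higher as well, 5 of 6 dentate markers were lower, with a median of −0.25, 7 of 7 CA3 markers were lower, with a median of −0.19, and 6 of 6 microglial markers were higher, with a median of 0.26. Inhibitory neuron markers were higher for 6 of 8, with a median of 0.21, and oligodendrocyte markers lower for 4 of 6, with a median of −0.27 and a range from −0.74 to 0.69. Astrocyte markers were lower for 5 of 6 and CA1 markers for 3 of 5, with medians of −0.06 and −0.08. The log2 of the summed levels differed by 0.04 for oligodendrocyte, 0.08 for astrocyte and −0.02 for CA1 markers. For oligodendrocytes and astrocytes its sign was thus not that of the median. In unstressed ELS mice, where Npas4 and both Nptx1 and Nptxr were lower, 6 of 7 CA3 markers, 4 of 6 dentate markers and 4 of 5 CA1 markers were lower as well, with medians of −0.26, −0.21 and −0.11. Microglial markers were higher for 6 of 6, with a median of 0.38, inhibitory neuron markers for 6 of 8, with 0.12, and astrocyte markers for 5 of 6, with 0.07, while oligodendrocyte markers were lower for 4 of 6, with −0.03. The log2 of the summed oligodendrocyte levels was 0.15 higher there. Gprin3 stood at −0.55 after AS in controls and at −0.76 in unstressed ELS mice. The part of these markers in the values of Arc, Npas4 and the pentraxins was not tested.

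**Figure D4:**
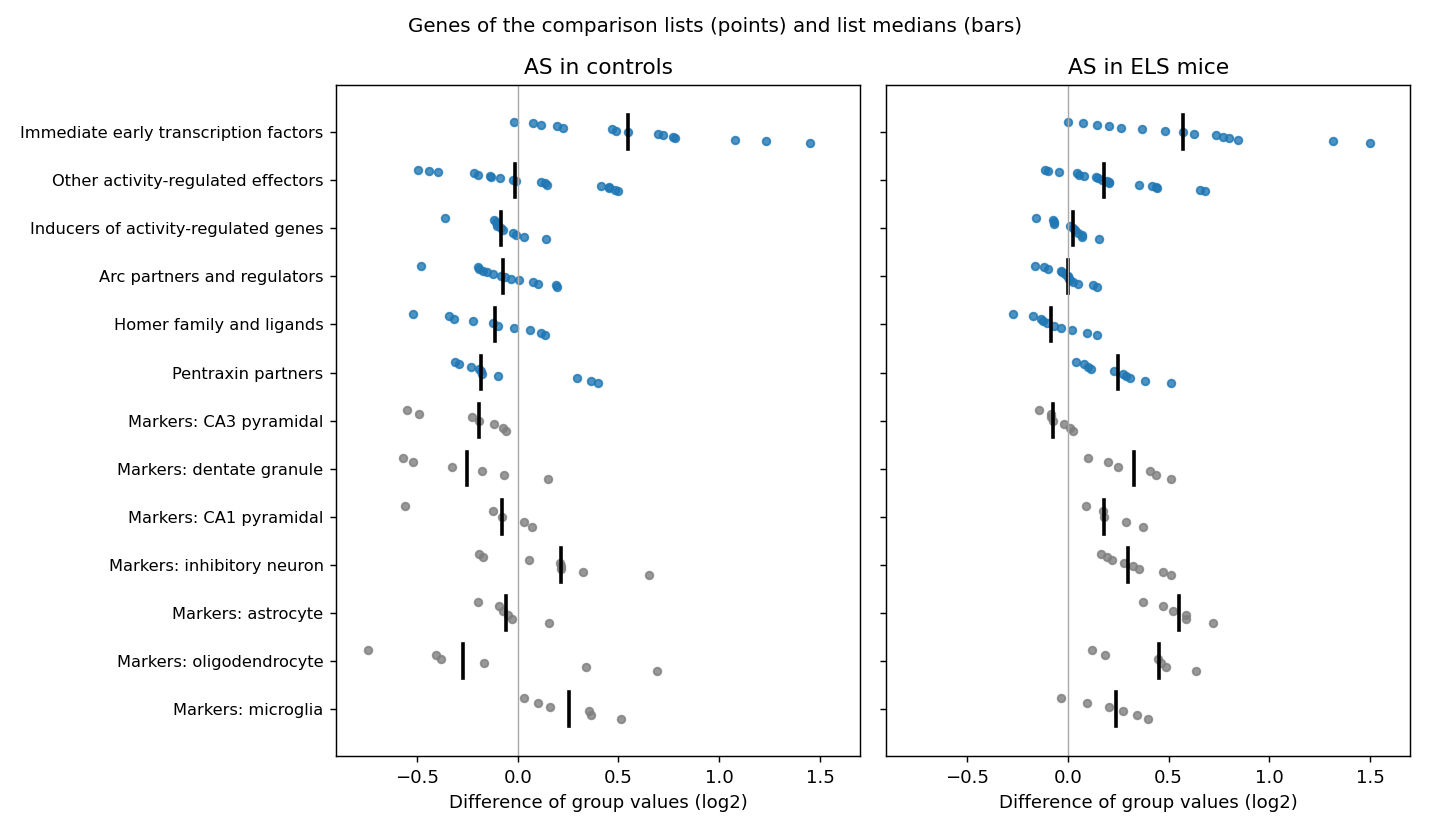
Differences of group values (log2) after AS in controls (left) and in ELS mice (right) for the genes of each comparison list, with 1 point per gene and a bar at the median. Immediate early transcription factors have medians of 0.55 and 0.57, and the marker lists of dentate, inhibitory and glial cells lie mostly to the right of 0 in ELS mice.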

How the data were processed

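Per the sample records and the paper's methods, the authors trimmed and aligned reads to mm10 with Rsubread, quantified transcripts with Salmon, took gene counts from tximport and fitted DESeq2. The deposited values are log2 values from its rlog transformation, 1 per gene and group. The methods name a limma batch correction of rlog values for heatmaps and principal components, and the deposited table is titled as date corrected. Whether these refer to the same step, how libraries were combined and the tool versions are not given in the sources used here. Of 20196 genes, 25 whose symbols had become dates were left out. No read counts or totals per library were used, so the depth behind a value is unknown and no interval was computed.

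Group values were subtracted, and differences over 0.5 were counted over the 14986 genes whose mean reached 3. Levels are not per length unless stated. Named genes are the 6 members, for each the 3 genes of nearest pattern, and up to 3 genes furthest from 0 in each direction after AS in each list and background, with those of opposite sign after AS. Npcd and the markers Gprin3, Chgb, Gad1 and Tmem119 were added after their values were seen. The members and lists were chosen with earlier results of these data known. Transcript lengths and positions came from GENCODE M21 (length found for 98.1% of genes). Alternatives were centring of groups, removal of the trend with transcript length in 50 bins, sizes of 0.25 and 1, and minimum means of none and 6. The comparison code was tested on simulated data. Python 3.11.15, numpy 2.4.6, pandas 2.3.3 and matplotlib 3.10.9 were used.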

Additional observations from a re-analysis of the deposited data

Results flagged for a closer look

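The difference after AS had opposite signs in controls and in ELS mice, each over 0.1 in size, for the results below. With 1 value per group the contrast between backgrounds was not tested, and 16.2% of all 14986 genes met the same description. Those lower after AS in controls and higher in ELS mice were 8.33% of all genes. Nptxr stood at −1.10 in controls and 0.26 in ELS mice. Its contrast, the AS difference in ELS mice minus that in controls, was 1.36. Of 18 other activity-regulated effectors, 5 were lower after AS in controls and higher in ELS mice, with contrasts of 0.85 for the granin Scg2, 0.85 for Pcsk1, a prohormone convertase, 0.64 for Inhba, a subunit of activin, 0.34 for the neuropeptide precursor Vgf and 0.28 for the protease gene Plat. All 5 were lower in unstressed ELS mice than in unstressed controls, by −0.56, −0.55, −0.41, −0.22 and −0.21. These differences use the same unstressed values that enter the contrast, so they are not a separate result.

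The same direction was found for the partners of the pentraxins as a list, with medians of −0.18 and 0.25, which lie 0.43 apart, though its mean in controls was −0.04. Among its genes the contrast was 0.69 for C1ql2, 0.52 for C1ql3 and 0.43 for Gria2. It was 0.46 for Itpr1, a calcium channel that Homer proteins bind, and 0.26 for Mef2c. The opposite direction, higher in controls and lower in ELS mice, was found for Sh3gl3 with −0.36, Dlg4 with −0.31 and Homer2 with −0.25. Among dentate granule cell markers the median AS difference was −0.25 in controls and 0.33 in ELS mice, a gap of 0.58. Among oligodendrocyte markers it was −0.27 and 0.45, a gap of 0.73, though the mean in controls was −0.11 and 2 of the 6 markers had the opposite contrast, −0.57 and −0.15.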

How the results depend on the processing

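No paired analysis was possible because the table holds 1 value per group, and for the same reason no replicate could be left out. Centring each group on its median moved the 36 member differences by −0.06 to 0.04, and removing the trend with transcript length by −0.14 to 0.12. Npas4 in unstressed ELS mice became −0.48 and −0.46, which left 1 gene lower past 0.5 in place of 2. Without the length trend, Nptxr stood at −0.997 after AS in controls, at −0.91 in unstressed ELS mice and at 1.23 for the contrast of AS differences, Nptx1 at 0.32 and Homer1 at −0.17 for that contrast, and Homer1 at 0.12 in unstressed ELS mice. Differences near 0 whose sign turned were those of Homer1 (0.02 after AS in controls and 0.00 in stressed ELS mice against unstressed controls, without the length trend) and Nptx1 (−0.01 after AS in ELS mice, centred). With Nptxr and Npcd summed, an alternative added after the data were seen, the differences were −0.19 after AS in controls, −0.30 for ELS alone, −0.31 for ELS with AS against unstressed controls, −0.00 after AS in ELS mice (−0.00302), −0.11 against stressed controls and 0.19 for the contrast. The larger values of Npcd bound the sum. With Nptxr at none and Npcd level, it could be lower than in unstressed controls by no more than −0.34. Npcd itself differed from unstressed controls by −0.16 in unstressed and −0.21 in stressed ELS mice. At a size of 0.25, 2 of the 6 genes were higher and 2 lower after AS in controls (11.4% and 12.3% of all genes), 3 were higher after AS in ELS mice (5.11%) and 3 lower in unstressed ELS mice (11.9%). Stressed ELS mice had 1 higher and 2 lower than unstressed controls (11.3% and 9.47%) and 1 higher and 1 lower than stressed controls (6.89% and 2.6%), and 2 were higher for the contrast (19.3%). The other counts at that size were 0. At a size of 1, Nptxr alone passed, lower in stressed controls (0.0467%) and for ELS alone (0.12%) and higher for the contrast (0.354%), and all other counts were 0. With a mean of at least 6, 0.993% of all genes were higher past 0.5 after AS in controls, 0.791% in unstressed ELS mice, 0.0505% were lower after AS in ELS mice and 0.177% lower than in stressed controls. Unknown depth and spread limit every value.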
